A study of Lactuca sativa with 9 samples.

Results

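The 6 libraries described here were made from leaves of 2 lettuce (Lactuca sativa) cultivars, 3 from ‘Okeechobee’, which the study used as its long shelf-life (LSL) genotype, and 3 from ‘Manatee’, labelled intermediate shelf-life (ISL). They are 6 of the 9 libraries of the series, chosen by the genotype in the sample labels, and the other 3 are of 60184, the short shelf-life (SSL) breeding line. The growth protocol gives the same chamber conditions for every genotype, 22 °C with a 16 h day, while the labels give the location Belle Glade for every sample. These sources were not reconciled here. For Okeechobee and 60184, the study describes taking the first fully expanded leaf at maturity, before harvest and before any storage. The labels name no transgene and no treatment, so genotype is the only labelled difference. Each shelf-life class is 1 genotype, so shelf-life cannot be told apart from any other difference between the cultivars, and the study’s text speaks of biological replicates and individuals for Okeechobee and 60184. How the Manatee replicates were taken is not given in the sources used here, so p-values measure the spread between these libraries, which for Manatee may in part be technical.

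Lettuce loses shelf-life through leaf senescence, in which chlorophyll is broken down, photosynthesis genes are switched off and cell walls loosen. Jasmonate, ethylene and abscisic acid generally promote that programme, and transcription factors (TFs) of the NAC, WRKY, AP2/ERF and MYB families carry it out. Cultivars also differ in disease resistance genes of the nucleotide-binding, leucine-rich repeat (NBS-LRR) type, which sense pathogen proteins inside the cell and lie in clusters that often vary in gene content between lines. The comparison asks which of these gene groups differed between a long and an intermediate shelf-life cultivar while the leaves were still attached.

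Gene counts totalled 30219938, 28772523 and 24108451 in the Okeechobee libraries, against 29927056, 32299035 and 30611453 in the Manatee libraries. Reads that mapped outside annotated genes made up 12.01%, 6.41% and 10.8% of uniquely mapped reads in Okeechobee, against 7.70%, 5.24% and 6.26% in Manatee. Manatee replicate 2 stood apart from its group. Among 12546 genes with a mean of at least 10 counts scaled by TMM to a common library size (CPM), 764 were more than 2-fold away from both other Manatee libraries in replicate 2, against 27 in replicate 1 and 24 in replicate 3, and 633 of the 764 lay on the Okeechobee side. Okeechobee replicates 1 and 3 had 333 and 276 such genes, of which 265 and 193 lay on the Manatee side. Okeechobee replicate 2 had 90, of which 45 did. In Manatee replicates 1 and 3, 17 of the 27 and 15 of the 24 lay on the Okeechobee side. A lean toward the other cultivar was thus not particular to Manatee replicate 2. The first principal component, with 59.0% of the variance, separated the cultivars, and the second, with 22.8%, placed Manatee replicate 2 beside Okeechobee replicate 1. The counts of genes, list tallies, chromosome summaries and named genes below were therefore also computed without Manatee replicate 2. The 24 described light harvesting genes, which mark green leaf tissue, all had reads, and their summed level was 3994 to 7770 CPM in Okeechobee and 5036 to 10426 CPM in Manatee. The 7 guard cell and epidermis genes summed to 20.6 to 33.0 CPM in Okeechobee and 15.1 to 29.6 CPM in Manatee, and the 7 genes of the vascular list to 482 to 712 CPM in Okeechobee and 365 to 843 CPM in Manatee. The vascular list was drawn by words in the descriptions and includes callose synthase genes. Of these, Lsat_1_v5_gn_1_68521 had 198, 177 and 137 CPM in Okeechobee and 118, 210 and 117 CPM in Manatee. The summed level is therefore not a measure of vascular tissue alone. In whole leaves, fewer cells of a type and less RNA per cell cannot be told apart.

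**Figure D1:**
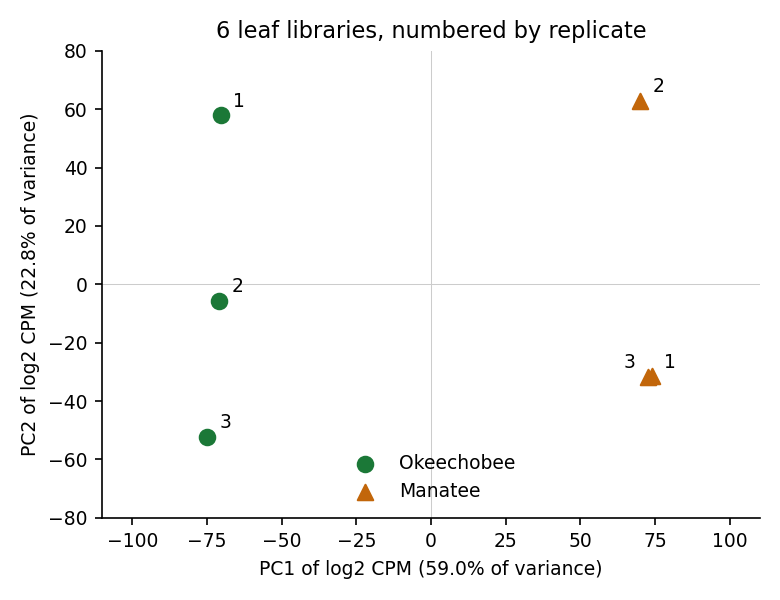
Principal components of log2 CPM in the 6 libraries, with the first component (59.0% of the variance) on the x axis, the second (22.8%) on the y axis, and 1 point per library. Okeechobee libraries lie at negative and Manatee libraries at positive values of the first component, and Manatee replicate 2 (62.9) and Okeechobee replicate 1 (57.9) lie at the top of the second.

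A minimum of 10 counts was reached in 3 or more of the 6 libraries by 21937 genes. Of these, 1817 (8.28%) differed between the cultivars at an adjusted p under 0.05 in edgeR’s quasi-likelihood test, 997 (4.54%) higher and 820 (3.74%) lower in Okeechobee. Further thresholds, a change of 4-fold or more (2 on the log2 scale) and an average of 100 or more raw counts in either cultivar, left 408 differentially expressed (DE) genes (1.86%), 231 (1.05%) higher and 177 (0.807%) lower in Okeechobee. The study’s own filter on abundance is described in TPM, a length-scaled unit, while the minimum used here is in raw counts. The libraries of the 2 cultivars did not overlap in any of the 408, as in 33.2% of all genes tested. For genes named below, a lack of overlap therefore describes their levels and is no further support beside the p. Without Manatee replicate 2, 2375 genes (10.8%) passed, 6.14% higher and 4.69% lower, and 507 were DE, and 400 of the 408 passed in the same direction. In each fit with 1 library left out, the choice of tested genes and the minimum mean count still used all 6 libraries. The count that passed fell to 640 to 1176 when 1 of the other libraries was left out, and the DE count then lay between 324 and 409. Against 60184, each in its own 6-library fit, 6969 genes (31.5%) passed in Okeechobee and 4176 (18.9%) in Manatee (4700 without Manatee replicate 2).

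**Figure D2:**
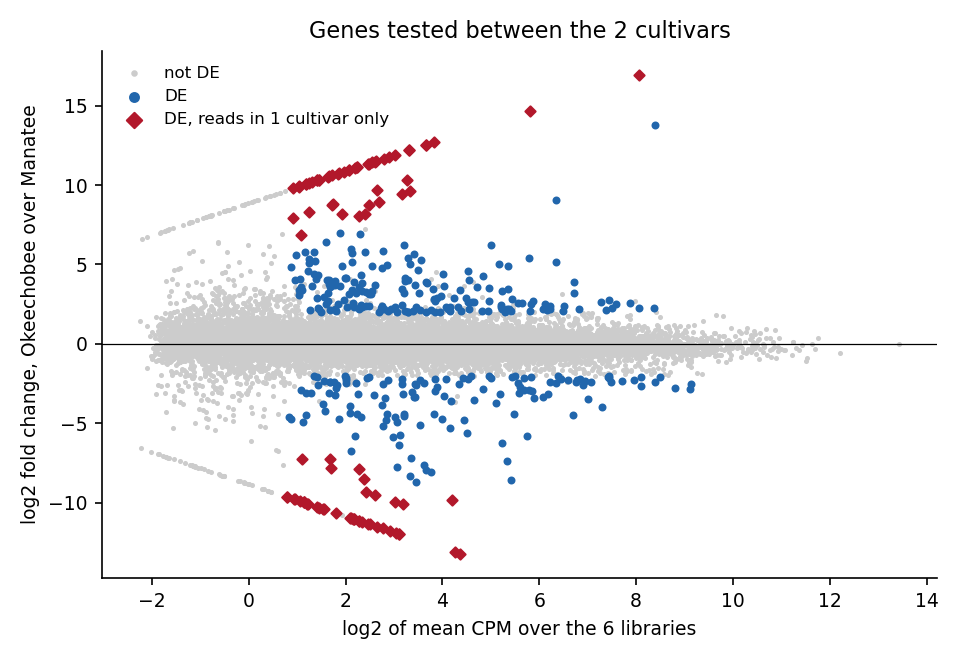
Log2 fold change of Okeechobee over Manatee on the y axis against log2 of the mean CPM on the x axis, with 1 point per tested gene, DE genes in blue and those with reads in 1 cultivar only as red diamonds. The 231 higher and 177 lower DE genes spread widely in both directions, and fitted values of red points depend on the prior count.

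Gene descriptions were held for 3652 of the tested genes, of which 796 (21.8%) passed, 427 (11.7%) higher and 369 (10.1%) lower, and 1240 (34.0%) passed without Manatee replicate 2, 20.9% higher and 13.0% lower. These genes carry descriptions because the study listed them, mostly for a difference between Okeechobee and 60184, and Okeechobee is in both comparisons. Tallies of the 38 gene lists below, all taken from described genes, are therefore not independent evidence of a direction. They are read against 11.7% higher and 10.1% lower among described genes. Tallies without Manatee replicate 2 are read against 20.9% higher and 13.0% lower, so a rise in them is in part shared by all described genes. The median log2 fold change was 0.02 over all tested genes and 0.10 over described genes. Levels are given as CPM for replicates 1, 2 and 3 in turn, and “passed” means an adjusted p under 0.05 over all 21937 genes.

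Many of the largest differences were genes with reads in only 1 cultivar. Of the 231 DE genes higher in Okeechobee, 51 (22.1%) summed to 3 counts or fewer over the Manatee libraries, 37 of them to 0. Of the 177 lower in Okeechobee, 43 (24.3%) summed to 3 counts or fewer over the Okeechobee libraries, 33 of them to 0. Without Manatee replicate 2 there were 55 and 44 such genes. A count of 0 allows up to 3 counts, or 0.0357 CPM in Okeechobee and 0.0327 CPM in Manatee, and this floor and the intervals below cover counting error only. A missing gene, sequence that no longer matches the reference genome and a gene that was not transcribed cannot be told apart in these counts, and reads shared with a near-identical copy were not counted.

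The most abundant described gene of this kind was Lsat_1_v5_gn_9_102320, described as catechol oxidase or tyrosinase, the polyphenol oxidase type of enzyme that browns cut tissue. It had 570.2, 482 and 556 CPM in Okeechobee, against 0 in all 3 Manatee libraries, at least 16471-fold higher (adjusted p = 0.000229), and it had 163, 291 and 457 CPM in 60184. Lsat_1_v5_gn_8_129201, described both as the transcriptional adaptor ADA2A and as a methionine-tRNA ligase, had 28.6, 23.8 and 23.1 CPM in Okeechobee and 0 in Manatee and 60184, at least 778-fold higher. Both genes were read in every Okeechobee library and in no Manatee library, and only the oxidase was also read in 60184. A histone H4 gene (Lsat_1_v5_gn_6_50580; 6.63, 5.96 and 5.97 CPM in Okeechobee and 0 in Manatee) and a sucrose synthase gene (Lsat_1_v5_gn_1_40161; 10.4, 8.16 and 8.90 CPM in Okeechobee and 0 in Manatee), which splits sucrose for use in sink tissue, were at least 191-fold and 282-fold higher. The most abundant DE gene higher in Okeechobee, Lsat_1_v5_gn_2_3000, has no description and was chosen after its values were seen. It had 985, 629.7 and 399 CPM in Okeechobee and 0, 0 and 0.129 CPM in Manatee.

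In the other direction, Lsat_1_v5_gn_3_28920, a cysteine-rich receptor-like kinase of the CRK2 type, had no reads in Okeechobee and 15.4, 83.4 and 16.1 CPM in Manatee, at least 1020.0-fold lower in Okeechobee. Manatee replicate 2 held most of these reads, and the gene also passed without it (adjusted p = 0.00155). Further along the chromosome, with 1 tested gene between, Lsat_1_v5_gn_3_28980 encodes a kinase of the same name and had 7.19, 8.93 and 17.8 CPM in Okeechobee against 0.417, 0.212 and 0.515 CPM in Manatee (log2 fold change 4.89 ± 0.51, adjusted p = 0.00309, chosen after its values were seen). The pair thus ran in opposite directions. An En/Spm-type transposase (Lsat_1_v5_gn_3_84721) had no reads in Okeechobee and 17.6, 14.4 and 17.02 CPM in Manatee, at least 454-fold lower. Lsat_1_v5_gn_3_116420, described both as a syntaxin, of the family that fuses membranes, and as a replication factor C subunit, had 0, 0.105 and 0 CPM in Okeechobee and 43.5, 26.3 and 40.2 CPM in Manatee. An undescribed gene, Lsat_1_v5_gn_0_38321, had 0 in Okeechobee and 47.8, 32.1 and 44.0 CPM in Manatee (adjusted p = 0.000424, chosen after its values were seen). Of the 51 genes read in Okeechobee only, 32 had at least 100 counts over the 60184 libraries and 14 had 3 or fewer. Of the 43 read in Manatee only, 14 had at least 100 and 25 had 3 or fewer.

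The disease resistance genes held DE genes in both directions. Of 99 tested NBS-LRR genes, 29 were higher and 15 lower in Okeechobee, with a median log2 fold change of 0.58, and 47 were higher and 15 lower without Manatee replicate 2. Counting reads of near-identical paralogs in these clusters is uncertain, since only uniquely mapped reads were kept. Lsat_1_v5_gn_1_99060, of the Toll/interleukin-1 receptor (TIR) class and named after the grapevine mildew resistance gene RUN1, had 127, 115 and 93.1 CPM in Okeechobee and 0 in Manatee, at least 3459-fold higher (adjusted p = 0.000249). It had no reads in 60184 either.

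Several of these genes lay near a relative that went the other way. Chromosome and gene order were read from the gene IDs, in which the number after gn names the chromosome and the last number the order along it, and no coordinates were used. Lsat_1_v5_gn_8_48680, named after the Nicotiana resistance gene Roq1, had 19.1, 19.5 and 15.0 CPM in Okeechobee and 0, 0.0353 and 0.0322 CPM in Manatee (adjusted p = 0.000184). The next tested gene, Lsat_1_v5_gn_8_48660, with a heavy-metal-associated domain, had 0.0994, 0.0349 and 0.0390 CPM in Okeechobee and 23.2, 19.0 and 18.3 CPM in Manatee (adjusted p = 0.000136). Each cultivar thus held reads of 1 of the 2 neighbours and almost none of the other. On chromosome 1, Lsat_1_v5_gn_1_99400 had no reads in Okeechobee and 4.04, 2.93 and 6.75 CPM in Manatee, with 2 tested genes between it and Lsat_1_v5_gn_1_99060. Lsat_1_v5_gn_1_102140, named after the grapevine gene RPV1, had 0, 0 and 0.156 CPM in Okeechobee and 18.3, 27.9 and 19.3 CPM in Manatee (adjusted p = 0.00109), while Lsat_1_v5_gn_1_102041 had 104, 73.8 and 47.9 CPM in Okeechobee and 2.98, 15.9 and 2.44 CPM in Manatee (log2 fold change 3.43 ± 0.76, adjusted p = 0.0401). For Lsat_1_v5_gn_1_102041 the log2 fold change was 4.79 without Manatee replicate 2, and the adjusted p was 0.0664 to 0.128 without any 1 library but Manatee replicate 2. Of 23 DE NBS-LRR genes, in a background of 7.17% DE among described genes, 12 had a DE NBS-LRR gene of the opposite direction with at most 4 tested genes between, in 7 pairs, and 52 such pairs of any DE genes were found. A gene can stand in more than 1 pair, as Lsat_1_v5_gn_1_99400 did with Lsat_1_v5_gn_1_99060 and other neighbours. The share of all DE genes in such pairs was not computed, so the 12 of 23 has no background to be read against. Without Manatee replicate 2 the 7 pairs and 12 genes stood among 26 DE NBS-LRR genes, and there were 66 pairs in all. Lsat_1_v5_gn_1_99400, Lsat_1_v5_gn_1_102140 and Lsat_1_v5_gn_1_102041 were chosen after their values were seen.

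The 23 DE NBS-LRR genes lay mostly on chromosome 1 (7 genes), chromosome 2 (5), chromosome 8 (5) and chromosome 3 (3). The tested NBS-LRR genes of each chromosome are not given beside these counts, so the counts do not show where such genes differed more often. The window of 50 tested genes with the most DE genes was at the start of chromosome 2, where 11 were DE and 22 passed, and 10 of the 11 were higher in Okeechobee. Of 433 such windows, 221 held no DE gene and 12 held at least 5. Without Manatee replicate 2 it was again the window with the most DE genes, with 11 DE and 20 passed, and 183 windows held none. Lsat_1_v5_gn_2_340, an NB-ARC gene there, had 49.4, 58.9 and 55.9 CPM in Okeechobee and 2.40, 3.22 and 2.86 CPM in Manatee, with a log2 fold change of 4.30 ± 0.17 (adjusted p = 0.000136). Its neighbour Lsat_1_v5_gn_2_261 had 32.5, 34.2 and 33.1 CPM in Okeechobee and 5.64, 5.02 and 3.28 CPM in Manatee (chosen after its values were seen, log2 fold change 2.86 ± 0.22, adjusted p = 0.000766). Further along, Lsat_1_v5_gn_2_841, of unknown function, had 204, 179 and 183 CPM in Okeechobee and 20.6, 23.2 and 19.2 CPM in Manatee, and the leucine-rich repeat gene Lsat_1_v5_gn_2_940 had 20.2, 19.4 and 22.5 CPM in Okeechobee and 2.28, 2.33 and 2.19 CPM in Manatee. From Lsat_1_v5_gn_2_940, 6 tested genes in a row passed with higher levels in Okeechobee. A pair of undescribed genes of the window, chosen after their values were seen, were at 0 in 1 cultivar. Lsat_1_v5_gn_2_480 had 1.92, 17.4 and 5.93 CPM in Okeechobee and 0 in Manatee (adjusted p = 0.0272, 0.0655 to 0.0735 without 1 of Okeechobee replicate 3 or Manatee replicates 1 or 3), and Lsat_1_v5_gn_2_600 had 0 in Okeechobee and 8.56, 23.7 and 8.46 CPM in Manatee. By chromosome, DE genes made up 1.30% of tested genes on chromosome 5 to 2.53% on chromosome 3, and 3.74% among the 454 tested genes not placed on a chromosome, whose IDs start with 0. None of the 94 genes read in 1 cultivar only lay on chromosome 7, where 1981 genes were tested and 32 were DE.

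Receptors on the cell surface passed as often as described genes in general, 21.8% in each case, and held single genes with wide differences. Of 133 tested, 17 were higher and 12 lower in Okeechobee (median 0.15), against 41 and 13 without Manatee replicate 2. The leucine-rich repeat gene Lsat_1_v5_gn_7_86140, described as related to the co-receptor BAK1, had 166, 163 and 144 CPM in Okeechobee and 3.69, 5.12 and 4.47 CPM in Manatee, a log2 fold change of 5.18 ± 0.18 (adjusted p = 0.000136). A pair of malectin-type receptor kinases, of the family that senses the cell wall in Arabidopsis, went the other way. Lsat_1_v5_gn_1_89581 had 1.13, 1.40 and 0.312 CPM in Okeechobee and 71.0, 78.8 and 73.3 CPM in Manatee (log2 fold change -6.25 ± 0.44, adjusted p = 0.000618), and Lsat_1_v5_gn_5_32001 had 1.16, 1.08 and 0.429 CPM in Okeechobee and 38.7, 52.9 and 42.7 CPM in Manatee (log2 fold change -5.61 ± 0.35, adjusted p = 0.000424). Both were low but read in every Okeechobee library, at 1.40 CPM or less, and did not overlap between the cultivars. Lsat_1_v5_gn_2_57021 and Lsat_1_v5_gn_5_42501, of the same family, were higher in Okeechobee (log2 fold changes 1.59 ± 0.14 and 1.99 ± 0.24), and Lsat_1_v5_gn_9_35021, a wall-associated kinase, was lower (-1.36 ± 0.17). The receptor-like protein gene Lsat_1_v5_gn_1_60701 had 22.3, 22.2 and 18.0 CPM in Okeechobee and 0.321, 0.459 and 0.450 CPM in Manatee, a log2 fold change of 5.68 ± 0.23. The MLO-type gene Lsat_1_v5_gn_9_68580, of the family whose loss gives mildew resistance in barley, had 0.364, 0.453 and 0.625 CPM in Okeechobee and 60.7, 109.9 and 69.0 CPM in Manatee, a log2 fold change of -7.35 ± 0.35 (adjusted p = 0.000229).

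A WRKY and an ERF gene were among the TF genes lower in Okeechobee. Lsat_1_v5_gn_8_103681, described as WRKY33 by its Arabidopsis match, a regulator of defence against necrotrophic fungi, had 168, 104 and 135 CPM in Okeechobee and 799, 1153 and 953 CPM in Manatee (log2 fold change -2.81 ± 0.27, adjusted p = 0.00206). Lsat_1_v5_gn_5_112660, an ERF109 gene that responds to redox signals and wounding in Arabidopsis, had 23.1, 12.6 and 18.7 CPM in Okeechobee and 322, 242 and 327 CPM in Manatee (log2 fold change -4.0 ± 0.29, adjusted p = 0.000626). All 3 Okeechobee libraries lay far below all 3 Manatee libraries for both. Lsat_1_v5_gn_8_86641, an IQM1 calmodulin-binding gene, had 119, 64.9 and 148 CPM in Okeechobee and 644, 972 and 745 CPM in Manatee (log2 fold change -2.81 ± 0.35, adjusted p = 0.00611). By mean CPM over the 6 libraries, WRKY33 and IQM1 were among the 5 most abundant described DE genes lower in Okeechobee. The others were a receptor-like cytoplasmic kinase (Lsat_1_v5_gn_8_85560, log2 fold change -2.50 ± 0.38), a glycosyltransferase (Lsat_1_v5_gn_5_161220; -2.40 ± 0.49, -3.17 without Okeechobee replicate 3, and an adjusted p of 0.0310 that was 0.0773 to 0.0848 without 1 of Okeechobee replicates 1 or 2 or Manatee replicates 1 or 3) and a matrixin-type metalloprotease (Lsat_1_v5_gn_4_6101; -2.11 ± 0.28).

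Of the TF families, AP2/ERF had 5 of 49 members higher and 11 lower in Okeechobee (median log2 fold change -0.68, and 5 and 17 without Manatee replicate 2). Beside ERF109, ERF018 (Lsat_1_v5_gn_7_35201) had 16.8, 6.52 and 14.0 CPM in Okeechobee and 99.9, 66.1 and 86.5 CPM in Manatee, a log2 fold change of -2.73 ± 0.36. The repressor-type gene ERF9 (Lsat_1_v5_gn_7_22540) and ERF5 (Lsat_1_v5_gn_9_50700) were lower at -1.79 ± 0.27 and -1.88 ± 0.28, the call on ERF5 with an adjusted p of 0.0113 that was 0.0528 without Okeechobee replicate 2. WRKY genes split into 2 higher and 7 lower of 22 (median 0.18), or 8 and 7 without Manatee replicate 2 (median 0.59). Of the 22, 11 had a positive log2 fold change, and 2 were DE and higher against 3 DE and lower. The list as a whole was thus not shifted down in Okeechobee. The WRKY genes named next were picked for their small p, and all were lower. Lsat_1_v5_gn_6_84341, a WRKY gene with 36.3, 22.9 and 31.1 CPM in Okeechobee and 92.0, 216 and 128 CPM in Manatee, was lower at -2.24 ± 0.34 (adjusted p = 0.0121, 0.0511 without Okeechobee replicate 2). Lsat_1_v5_gn_4_61461 and the WRKY70-type gene Lsat_1_v5_gn_2_126880 were lower at -1.20 ± 0.15 and -1.46 ± 0.22 (for Lsat_1_v5_gn_2_126880, adjusted p 0.0111, 0.0546 without Manatee replicate 3).

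NAC genes, which include master regulators of senescence, had 1 of 17 higher and 3 lower (median -0.53, and 2 and 3 without Manatee replicate 2). The higher gene, Lsat_1_v5_gn_9_95120, is related to NAC19, which acts in stress and jasmonate responses in Arabidopsis, and had 97.1, 26.9 and 65.8 CPM in Okeechobee and 0.257, 1.59 and 0.804 CPM in Manatee (log2 fold change 6.20 ± 0.73, 6.89 without Manatee replicate 2, adjusted p = 0.00482). A pair of NAC2-type genes close together on chromosome 6 were lower. Lsat_1_v5_gn_6_56440 had 27.1, 8.82 and 27.3 CPM in Okeechobee and 179, 354 and 178 CPM in Manatee (log2 fold change -3.46 ± 0.52), and Lsat_1_v5_gn_6_56420 had 54.7, 24.2 and 47.7 CPM in Okeechobee and 176, 310.0 and 193 CPM in Manatee (-2.40 ± 0.37). MYB genes had 5 of 40 higher and 2 lower (median 0.30, and 7 and 3 without Manatee replicate 2). Lsat_1_v5_gn_3_12421, matched to MYB111, which activates flavonol synthesis in Arabidopsis, had 211, 249 and 129 CPM in Okeechobee and 9.46, 21.6 and 10.04 CPM in Manatee (log2 fold change 3.87 ± 0.42, adjusted p = 0.00367). A KUA1-type MYB (Lsat_1_v5_gn_6_93401) was higher at 2.17 ± 0.29 and MYB94 (Lsat_1_v5_gn_4_108080), a wax regulator in Arabidopsis, lower at -1.51 ± 0.20. bHLH genes had 4 of 29 higher and 1 lower (median 0.35, and 6 and 5 without Manatee replicate 2), led by Lsat_1_v5_gn_3_140101, an MTB-type repressor of jasmonate responses, with 143, 156 and 136 CPM in Okeechobee and 26.9, 51.4 and 28.8 CPM in Manatee (log2 fold change 2.05 ± 0.27).

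Several genes of jasmonate synthesis and response were higher in Okeechobee, and Manatee replicate 2 lay nearest to Okeechobee in most of those named here. The 14 synthesis genes summed to 7074, 5806 and 4576 CPM in Okeechobee and 2750, 7302 and 2973 CPM in Manatee, so the cultivars overlapped. Of the 14, 4 were higher and 1 lower (median log2 fold change 0.74), and 6 and 1 without Manatee replicate 2. JAR1 (Lsat_1_v5_gn_4_34281), which joins jasmonate to isoleucine and so makes the active hormone, had 284, 280.2 and 229 CPM in Okeechobee and 28.2, 71.6 and 32.1 CPM in Manatee (log2 fold change 2.62 ± 0.38, adjusted p = 0.00978, 0.0511 without Manatee replicate 3). ACAA1 (Lsat_1_v5_gn_5_179700), a peroxisomal 3-ketoacyl-CoA thiolase of the last steps of synthesis, had 428, 417 and 344.8 CPM in Okeechobee and 35.2, 136 and 36.9 CPM in Manatee (log2 fold change 2.54 ± 0.55, adjusted p = 0.0379). Manatee replicate 2 was the nearest to Okeechobee for both, and ACAA1 had 3.46 without Manatee replicate 2 (adjusted p = 0.000728) and an adjusted p of 0.0785 to 0.121 without any 1 library but Manatee replicate 2. A lipoxygenase (Lsat_1_v5_gn_5_148821, log2 fold change 0.80 ± 0.16, adjusted p 0.0280, 0.0581 to 0.137 without any 1 library but Manatee replicate 2) and a phospholipase A1 (Lsat_1_v5_gn_6_94020; 0.82 ± 0.17, adjusted p 0.0330, 0.0529 to 0.141 without any 1 library but Manatee replicate 2), which start the pathway, were higher by less, and another phospholipase A1 (Lsat_1_v5_gn_7_29201) was lower (-2.0 ± 0.40, adjusted p 0.0287, 0.0578 to 0.0766 without 1 of Okeechobee replicates 1 or 2 or Manatee replicates 1 or 3).

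The JAZ proteins repress jasmonate responses and MYC2 activates them. Of 10 tested genes of this group, 2 were higher and 0 lower (median log2 fold change 0.94), against 6 and 0 without Manatee replicate 2. TIFY10B (Lsat_1_v5_gn_4_91521) had 460.0, 278 and 166 CPM in Okeechobee and 36.0, 67.8 and 29.5 CPM in Manatee (log2 fold change 2.79 ± 0.47, adjusted p = 0.0167, 0.0502 to 0.0812 without 1 of Okeechobee replicate 2 or Manatee replicates 1 or 3). JAZ1 (Lsat_1_v5_gn_5_139561) had 693, 567 and 385 CPM in Okeechobee and 117, 276 and 131 CPM in Manatee (log2 fold change 1.68 ± 0.39, adjusted p = 0.0465, 0.0625 to 0.173 without any 1 library but Manatee replicate 2). Neither gene overlapped between the cultivars, and in both Manatee replicate 2 was the highest Manatee library. MYC2 (Lsat_1_v5_gn_6_65141) had 98.3, 66.9 and 54.2 CPM in Okeechobee and 31.5, 48.1 and 29.2 CPM in Manatee, with an adjusted p of 0.0669, and 0.0362 without Manatee replicate 2. JAZ8 (Lsat_1_v5_gn_7_28101) had 45.4, 23.1 and 17.6 CPM in Okeechobee and 3.59, 26.01 and 2.35 CPM in Manatee, with an adjusted p of 0.348, and 0.0135 without Manatee replicate 2 (chosen after its values were seen). Both genes had Manatee replicates 1 and 3 below every Okeechobee library.

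Cold and dehydration genes had 3 of 25 members higher and 2 lower (median 0.01, and 5 and 3 without Manatee replicate 2). COR47 (Lsat_1_v5_gn_3_77021), a dehydrin that protects cells during drying and cold, had 27.1, 17.7 and 26.5 CPM in Okeechobee and 0.481, 3.92 and 0.547 CPM in Manatee (log2 fold change 3.89 ± 0.79, 5.52 without Manatee replicate 2, adjusted p = 0.0309, 0.0672 to 0.0965 without any 1 library but Manatee replicate 2). RD22 (Lsat_1_v5_gn_1_59360), a drought marker in Arabidopsis, had 27.9, 20.3 and 26.5 CPM in Okeechobee and 2.79, 5.76 and 3.38 CPM in Manatee (log2 fold change 2.67 ± 0.30, adjusted p = 0.00388). The CBF4 gene (Lsat_1_v5_gn_9_54780), an activator of such genes, was lower at -1.69 ± 0.24, and a DREB2A-type gene (Lsat_1_v5_gn_8_13141) at -1.72 ± 0.31 (adjusted p 0.0208, 0.0565 to 0.0764 without 1 of Okeechobee replicates 1 or 2 or Manatee replicates 1 or 3). The share that passed, 20%, was near the 21.8% among described genes.

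**Figure D3:**
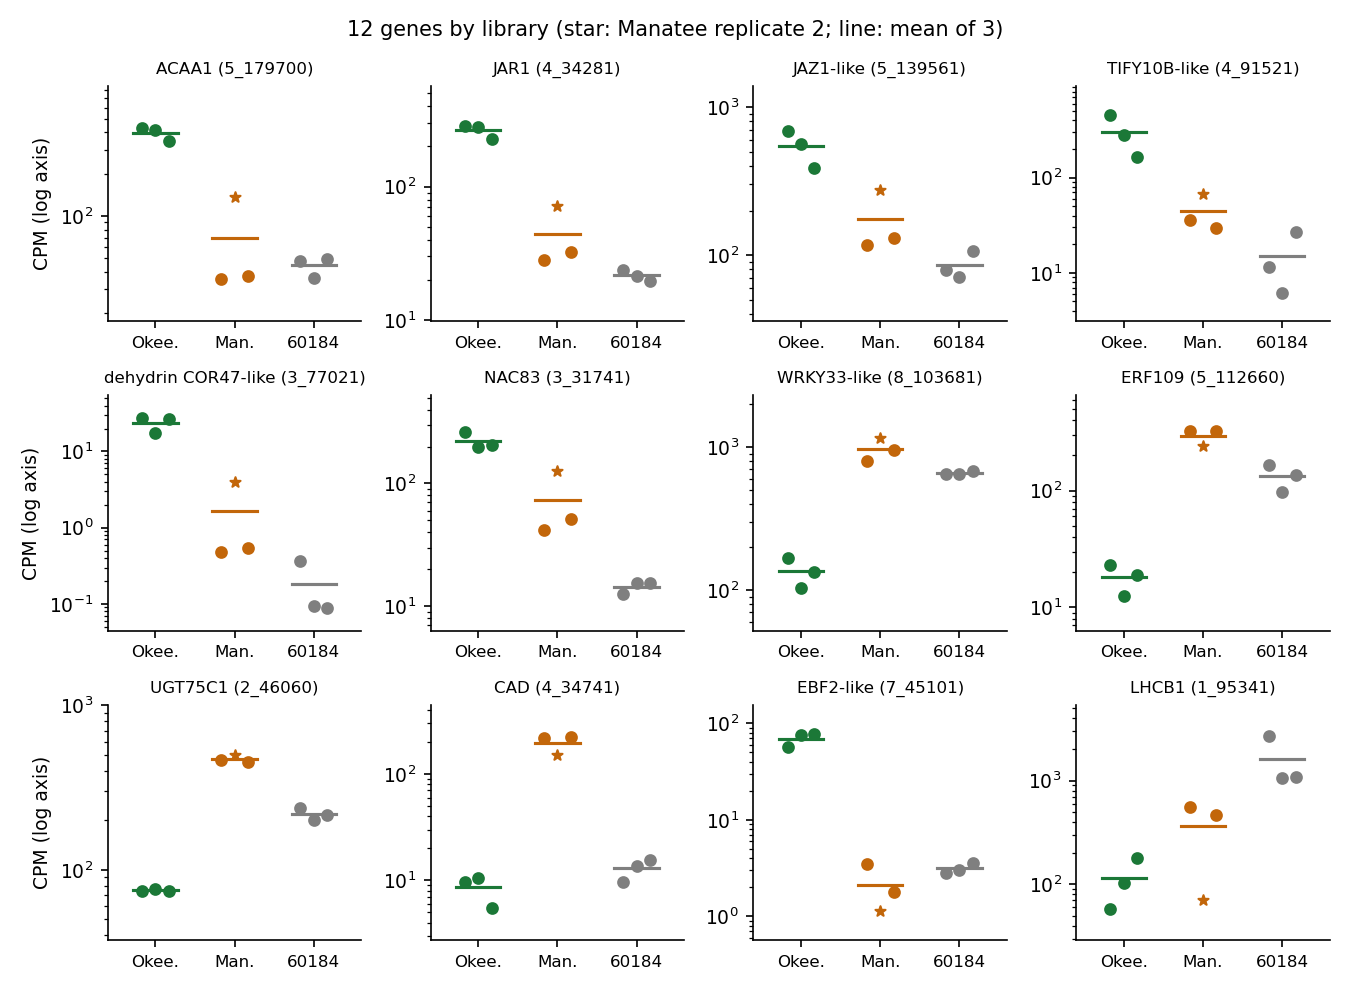
CPM of 12 genes on a log axis, with 1 panel per gene and 1 point per library in the order Okeechobee, Manatee and 60184 from the left, where lines are means of 3 libraries and the star is Manatee replicate 2. For JAR1 (Lsat_1_v5_gn_4_34281) the Okeechobee libraries lie between 229 and 284 CPM and Manatee replicate 2, at 71.6 CPM, is the highest of its cultivar.

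Photosynthesis genes mostly did not pass. None of 24 light harvesting genes did with all 6 libraries (median log2 fold change -0.37; 2 had an unadjusted p under 0.05 in edgeR and DESeq2 called 0 higher and 1 lower), and 2 were lower without Manatee replicate 2. LHCB1 (Lsat_1_v5_gn_1_95341), the main antenna protein of photosystem II, had 58.1, 104 and 179.8 CPM in Okeechobee and 552, 70.7 and 468 CPM in Manatee, with an adjusted p of 0.218, and 0.0300 without Manatee replicate 2. LHCB2 (Lsat_1_v5_gn_9_104740) had 0.265, 0.174 and 0.312 CPM in Okeechobee and 1.80, 0.424 and 2.03 CPM in Manatee, against 540.2, 243 and 253 CPM in 60184, so both cultivars lay far below the breeding line. A pair of others named here, LHCB1 (Lsat_1_v5_gn_5_144981, log2 fold change -1.40 ± 0.59, adjusted p = 0.192) and LHCB3 (Lsat_1_v5_gn_5_6741, -1.22 ± 0.60, adjusted p = 0.256), did not pass with or without Manatee replicate 2. A further LHCB1 gene, Lsat_1_v5_gn_7_34481, had 6.73, 10.3 and 85.9 CPM in Okeechobee and 54.6, 4.38 and 32.3 CPM in Manatee, and the sign of its difference turned when Okeechobee replicate 3 or Manatee replicate 2 was left out.

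Among 30 photosystem and Rubisco genes, 0 were higher and 1 lower (median -0.08, the same counts without Manatee replicate 2). The lower gene was a Rubisco small subunit gene (Lsat_1_v5_gn_2_79501) with 60.4, 127 and 62.02 CPM in Okeechobee and 307, 207 and 362 CPM in Manatee (log2 fold change -1.79 ± 0.36, adjusted p = 0.0305, 0.0762 to 0.0997 without 1 of Okeechobee replicates 1 or 3 or Manatee replicates 1 or 3), while all 5 small subunit genes summed to 3097, 7738 and 6826 CPM in Okeechobee and 5724, 4395 and 6341 CPM in Manatee. Chlorophyll synthesis had 0 of 11 genes higher and 2 lower (3 without Manatee replicate 2). Glutamyl-tRNA reductase (Lsat_1_v5_gn_9_114080), the committed step toward chlorophyll and heme, had 56.6, 52.4 and 59.6 CPM in Okeechobee and 201, 296 and 188 CPM in Manatee (log2 fold change -2.0 ± 0.21, adjusted p = 0.00328). GLK1 (Lsat_1_v5_gn_4_65921), a TF that drives chloroplast development, had 18.9, 20.3 and 21.2 CPM in Okeechobee and 66.0, 38.5 and 50.8 CPM in Manatee (log2 fold change -1.34 ± 0.21, adjusted p = 0.0122, 0.0537 without Okeechobee replicate 2). Both were lower in every Okeechobee library than in any Manatee library.

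Of 4 chlorophyll breakdown genes, none passed with all 6 libraries in edgeR and 1 did without Manatee replicate 2 (1 at an unadjusted p under 0.05; 1 higher and 0 lower by DESeq2). Chlorophyllase 2 (Lsat_1_v5_gn_8_66180), which removes the phytol chain, had 53.6, 22.3 and 17.6 CPM in Okeechobee and 1.03, 9.05 and 1.35 CPM in Manatee, with an adjusted p of 0.0819, and 0.00891 without Manatee replicate 2. STAY-GREEN 1 (Lsat_1_v5_gn_3_4460), which extracts magnesium from chlorophyll, had 228, 156 and 119 CPM in Okeechobee and 90.5, 159 and 102 CPM in Manatee and did not pass, nor did pheophytinase (Lsat_1_v5_gn_1_100221) or the STAY-GREEN-like gene (Lsat_1_v5_gn_6_97181). None of 6 circadian clock genes passed in edgeR with or without Manatee replicate 2 (0 at an unadjusted p under 0.05; 0 higher and 0 lower by DESeq2), and TOC1 (Lsat_1_v5_gn_1_14320) had 26.9, 27.0 and 17.1 CPM in Okeechobee and 28.3, 32.2 and 28.2 CPM in Manatee. A p that misses the threshold does not show that these levels were equal.

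**Figure D4:**
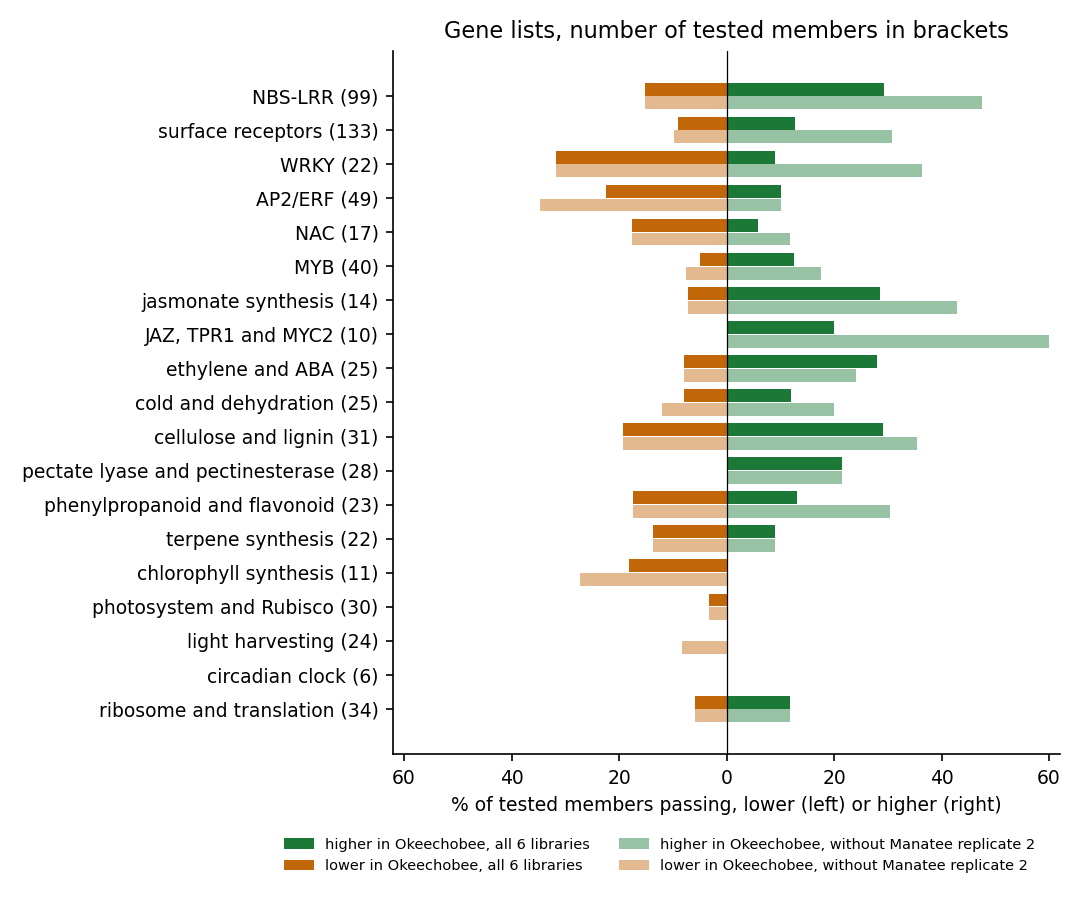
Share of tested members of 19 gene lists that passed, in percent on the x axis, higher in Okeechobee to the right and lower to the left, with dark bars for all 6 libraries and pale bars without Manatee replicate 2. NBS-LRR genes had 29 of 99 higher and 15 lower, and light harvesting and circadian clock genes had none that passed with all 6 libraries.

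Of the cell wall lists, 48.4% of cellulose and lignin genes and 21.4% of pectin genes passed, beside 21.8% of described genes. Pectate lyases and pectinesterases, which cut and de-esterify pectin, had 6 of 28 members higher and 0 lower (median 0.34), the same counts as without Manatee replicate 2. A pectinesterase (Lsat_1_v5_gn_5_190321) had 18.6, 30.5 and 27.8 CPM in Okeechobee and 1.60, 3.18 and 2.28 CPM in Manatee (log2 fold change 3.47 ± 0.32, adjusted p = 0.00180), and a pectate lyase 22-type gene (Lsat_1_v5_gn_8_154380) had 67.0, 113 and 167 CPM in Okeechobee and 34.4, 13.3 and 22.4 CPM in Manatee (log2 fold change 2.34 ± 0.45, adjusted p = 0.0249, 0.0574 to 0.102 without 1 of Okeechobee replicates 2 or 3 or Manatee replicate 3). Lsat_1_v5_gn_6_42540, annotated both as a receptor kinase and as a polygalacturonase, was higher at 1.92 ± 0.21 and the pectate lyase Lsat_1_v5_gn_8_85760 at 1.51 ± 0.18. Of 10 expansins, 1 was higher, expansin-like B1 (Lsat_1_v5_gn_6_60620; 17.1, 8.65 and 14.1 CPM in Okeechobee and 2.12, 4.70 and 3.31 CPM in Manatee, adjusted p = 0.0221, 0.0592 to 0.0956 without 1 of Okeechobee replicates 1 or 3 or Manatee replicates 1 or 3). None of the 7 xyloglucan endotransglucosylase/hydrolase (XTH) genes with a description passed in edgeR, with or without Manatee replicate 2. At an unadjusted p under 0.05 there were 0, and DESeq2 called 0 higher and 0 lower. The study reports more XTH genes with reads than these, and those without a description were not identified here.

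Of 31 cellulose and lignin genes, 9 were higher and 6 lower (median 0.10, and 11 and 6 without Manatee replicate 2). A cinnamyl-alcohol dehydrogenase (Lsat_1_v5_gn_4_34741), the last step to lignin units, had 9.74, 10.5 and 5.46 CPM in Okeechobee and 218, 151 and 223 CPM in Manatee (log2 fold change -4.50 ± 0.32, adjusted p = 0.000626). A pair of caffeoyl-CoA O-methyltransferases, a step before it, were higher in Okeechobee. Lsat_1_v5_gn_2_85040 had 9.94, 3.28 and 18.5 CPM in Okeechobee and 0.0321, 0.0707 and 0 CPM in Manatee (adjusted p = 0.00509), and Lsat_1_v5_gn_9_67821 had 61.5, 44.5 and 82.1 CPM in Okeechobee and 18.4, 11.8 and 17.4 CPM in Manatee (log2 fold change 2.0 ± 0.28). A cellulose synthase (Lsat_1_v5_gn_2_15841) had 25.5, 44.1 and 63.0 CPM in Okeechobee and 2.21, 1.20 and 2.22 CPM in Manatee (log2 fold change 4.58 ± 0.42, adjusted p = 0.00193). Lignin enzymes thus differed in both directions.

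Phenylpropanoid and flavonoid genes had 3 of 23 higher and 4 lower (median 0.23, and 7 and 4 without Manatee replicate 2), and 3 described as adding sugar or acyl groups to pigments were lower. Lsat_1_v5_gn_2_46060, described both as the anthocyanin glucosyltransferase UGT75C1 and as an indole-3-acetate glucosyltransferase, had 74.9, 76.2 and 74.8 CPM in Okeechobee and 465, 501 and 453 CPM in Manatee (log2 fold change -2.62 ± 0.16, adjusted p = 0.000398). A flavonol 3-O-glucosyltransferase (Lsat_1_v5_gn_3_118940) had 6.76, 9.31 and 13.9 CPM in Okeechobee and 104, 54.8 and 97.7 CPM in Manatee (-3.07 ± 0.35), and an anthocyanin malonyltransferase (Lsat_1_v5_gn_8_130860) had 9.11, 7.32 and 7.73 CPM in Okeechobee and 42.5, 42.2 and 29.5 CPM in Manatee (-2.21 ± 0.19). The isoflavone hydroxylase-type P450 Lsat_1_v5_gn_1_22720 was higher, with 14.2, 19.3 and 5.11 CPM in Okeechobee and 0.513, 0.389 and 0.515 CPM in Manatee. Of 22 terpene genes, 2 were higher and 3 lower (median -0.14, the same counts without Manatee replicate 2). A terpineol or linalool synthase (Lsat_1_v5_gn_8_143701), which makes scent monoterpenes, had 389, 334 and 249 CPM in Okeechobee and 59.5, 72.8 and 44.1 CPM in Manatee (log2 fold change 2.49 ± 0.26, adjusted p = 0.00320). Of the genes lower, Lsat_1_v5_gn_5_12001 is a copper-binding farnesylated protein listed for its name (log2 fold change -0.99 ± 0.17, adjusted p 0.0179, 0.0518 to 0.0736 without 1 of Okeechobee replicates 1 or 2 or Manatee replicates 1 or 3). Germacrene A hydroxylase (Lsat_1_v5_gn_3_65300), on the way to the bitter sesquiterpene lactones of lettuce latex, had 104, 129 and 81.2 CPM in Okeechobee and 259, 443 and 336 CPM in Manatee (log2 fold change -1.70 ± 0.27, adjusted p = 0.0130, 0.0524 without Manatee replicate 3).

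Ethylene and abscisic acid genes had 7 of 25 higher and 2 lower (median 0.34, and 6 and 2 without Manatee replicate 2). Both EIN3-binding F-box genes, whose products in Arabidopsis remove the ethylene TF EIN3, were higher. EBF2 (Lsat_1_v5_gn_7_45101) had 56.2, 74.7 and 77.3 CPM in Okeechobee and 3.46, 1.13 and 1.77 CPM in Manatee (log2 fold change 5.05 ± 0.42, adjusted p = 0.00123), and EBF1 (Lsat_1_v5_gn_1_43380) had 378, 404 and 311 CPM in Okeechobee and 111, 101 and 108 CPM in Manatee (1.80 ± 0.17, adjusted p = 0.00216). Both passed with each library left out in turn. A pair of 2-oxoglutarate-dependent oxygenases went opposite ways. Both are described as deacetoxyvindoline 4-hydroxylase and also as homolog 1 of ACC oxidase, the ethylene-forming enzyme. They are listed here for that name, and a role in making ethylene was not tested. Lsat_1_v5_gn_0_19261 had 0.0331, 0.0698 and 0.195 CPM in Okeechobee and 21.9, 27.2 and 25.9 CPM in Manatee, and Lsat_1_v5_gn_3_122040 had 8.68, 7.99 and 12.7 CPM in Okeechobee and 0, 0.141 and 0.0965 CPM in Manatee. Auxin genes had 5 of 30 higher and 5 lower (median -0.32, and 5 and 9 without Manatee replicate 2), among them the repressor-type gene IAA15 (Lsat_1_v5_gn_4_104440) with 14.7, 20.1 and 14.7 CPM in Okeechobee and 1.70, 0.742 and 2.09 CPM in Manatee (log2 fold change 3.46 ± 0.39).

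Genes named after senescence ran both ways, with 2 of 13 higher and 3 lower (median 0.04, the same counts without Manatee replicate 2). The lower genes include a pair that encodes SAG101, a lipase-like protein that in Arabidopsis works with EDS1 in TIR-type immunity. Lsat_1_v5_gn_4_180961 had 0, 0.0349 and 0 CPM in Okeechobee and 19.7, 11.9 and 16.8 CPM in Manatee (adjusted p = 0.000308), and Lsat_1_v5_gn_4_180921 had 4.97, 11.5 and 13.6 CPM in Okeechobee and 78.7, 155 and 90.5 CPM in Manatee (log2 fold change -3.40 ± 0.44). An SRG1-type oxygenase (Lsat_1_v5_gn_3_103061) had 5.37, 15.2 and 10.7 CPM in Okeechobee and 0.160, 0.0707 and 0.322 CPM in Manatee (adjusted p = 0.00328), and a related gene (Lsat_1_v5_gn_3_102861) was higher at 1.58 ± 0.31 (adjusted p 0.0271, 0.0635 to 0.111 without 1 of Okeechobee replicates 1 or 2 or Manatee replicates 1 or 3). Pathogenesis and chitinase genes had 3 of 27 higher and 4 lower (median 0.38, and 6 and 4 without Manatee replicate 2), with a beta-1,3-glucanase (Lsat_1_v5_gn_7_39521) at 86.7, 44.4 and 52.8 CPM in Okeechobee and 11.9, 11.1 and 15.0 CPM in Manatee.

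The last group is 11 of the genes chosen for quantitative PCR in the study. The designed pairs of 3 that cover the range of the differences are shown 5′ to 3′, since they mark the part of each transcript that can be checked by PCR.
Lsat_1_v5_gn_4_10400 forward: agagagaaccacccaagaa
Lsat_1_v5_gn_4_10400 reverse: gcatgaagttcctcctctaac
Lsat_1_v5_gn_8_121540 forward: cttccttgtcggtgctattc
Lsat_1_v5_gn_8_121540 reverse: ccaagctcaatacgggtaag
Lsat_1_v5_gn_5_179700 forward: tcaacctactgcttcatctaatc
Lsat_1_v5_gn_5_179700 reverse: catcaggaagagtgtccttaaa
The first pair targets a MADS-box gene on chromosome 4 with a K-box, of the type of Arabidopsis floral regulators. It had 0.199, 0.0349 and 0.117 CPM in Okeechobee and 23.4, 25.1 and 24.4 CPM in Manatee (log2 fold change -7.61 ± 0.37, -8.28 without Okeechobee replicate 1, adjusted p = 0.000229). Okeechobee was thus close to 0 in every library, and Manatee lay beside 60184 (26.5, 25.8 and 26.2 CPM). The second pair targets an NB-ARC and leucine-rich repeat gene on chromosome 8, with 0.199, 0.384 and 0.585 CPM in Okeechobee and 9.01, 6.86 and 8.33 CPM in Manatee (log2 fold change -4.35 ± 0.40, adjusted p = 0.00180) and 81.5, 84.1 and 88.1 CPM in 60184, so the cultivars were ordered with Okeechobee lowest and 60184 highest. The third pair targets ACAA1 on chromosome 5, described above with the jasmonate genes.

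Of the other 8, GLK1, described above, and NAM (Lsat_1_v5_gn_4_1821) were lower in Okeechobee, NAM with 39.5, 27.7 and 28.4 CPM in Okeechobee and 80.1, 55.4 and 66.1 CPM in Manatee (log2 fold change -1.05 ± 0.20, adjusted p = 0.0249, 0.0703 to 0.0945 without 1 of Okeechobee replicates 2 or 3 or Manatee replicates 1 or 3). The leucine-rich repeat gene Lsat_1_v5_gn_6_42241 was higher, with 68.5, 66.3 and 49.6 CPM in Okeechobee and 28.5, 40.4 and 34.4 CPM in Manatee (log2 fold change 0.86 ± 0.18, adjusted p = 0.0340, 0.0935 to 0.137 without 1 of Okeechobee replicates 1 or 2 or Manatee replicates 1 or 3). NAC83 (Lsat_1_v5_gn_3_31741) had 260.5, 198 and 205 CPM in Okeechobee and 41.9, 127 and 51.5 CPM in Manatee, and its adjusted p was 0.0637 with all libraries and 0.00332 without Manatee replicate 2. WRKY70 (Lsat_1_v5_gn_9_39381) had 99.0, 113 and 140.2 CPM in Okeechobee and 44.7, 93.1 and 52.9 CPM in Manatee, with adjusted p-values of 0.107 and 0.0136. In both genes Manatee replicates 1 and 3 lay below replicate 2. LHCB2 is given above, the pectate lyase (Lsat_1_v5_gn_2_115560) had 3.68, 6.98 and 10.5 CPM in Okeechobee and 6.06, 2.51 and 7.40 CPM in Manatee (log2 fold change 0.43 ± 0.50), and gibberellin 2-oxidase 8 (Lsat_1_v5_gn_1_122260), which inactivates gibberellin, had too few reads to be tested, with 0.232, 0.244 and 0.312 CPM in Okeechobee and 0.673, 0.283 and 0.675 CPM in Manatee, against 21.3, 23.9 and 22.6 CPM in 60184. An expansin A gene measured by PCR after storage but outside the 11, Lsat_1_v5_gn_8_15340, had 0.199, 0.384 and 1.29 CPM in Okeechobee and 1.73, 0.318 and 0.515 CPM in Manatee (adjusted p = 0.794), against 24.2, 6.51 and 7.18 CPM in 60184.

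The 60184 libraries took no part in choosing the DE genes and place each difference. Over the 408, the mean log2 CPM of 60184 was nearer Okeechobee in 166 (40.7%) and nearer Manatee in 242 (59.3%). Among the 231 genes higher in Okeechobee, 60184 was nearer Manatee in 68.0%, and among the 177 lower it was nearer Manatee in 48.0%. In 76 of the genes higher in Okeechobee, 60184 lay below Manatee, and in 23 above Okeechobee. These shares moved by less than 2 percentage points without Manatee replicate 2. The same position was not computed over all tested genes, so the shares have no background beside them. Over all genes tested in each fit, 31.5% passed between Okeechobee and 60184, and 18.9% between Manatee and 60184. The cinnamyl-alcohol dehydrogenase Lsat_1_v5_gn_4_34741 had 9.59, 13.6 and 15.6 CPM in 60184, beside Okeechobee, while EBF2 (Lsat_1_v5_gn_7_45101) had 2.83, 3.02 and 3.56 CPM and the BAK1-related gene Lsat_1_v5_gn_7_86140 2.33, 3.92 and 2.26 CPM in 60184, beside Manatee.

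**Figure D5:**
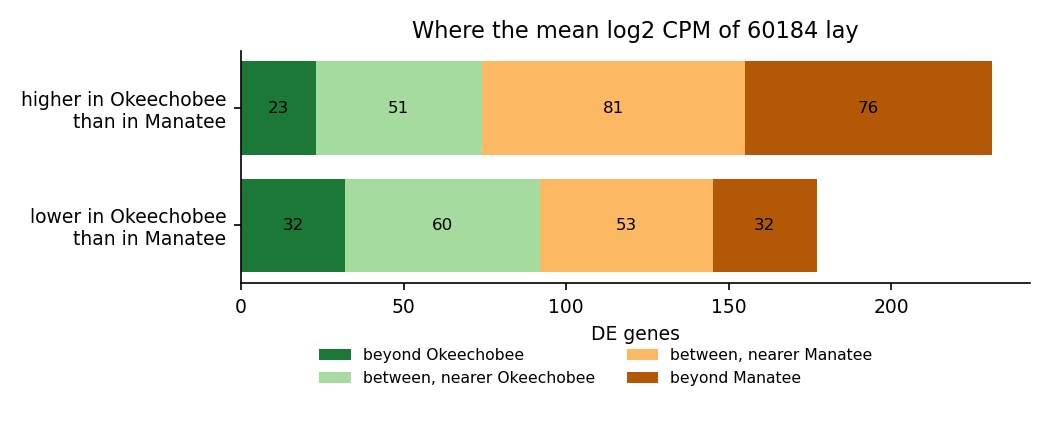
Number of DE genes, on the x axis, by where the mean log2 CPM of 60184 lies between or beyond Okeechobee and Manatee, for the 231 genes higher and the 177 lower in Okeechobee. Among the higher genes, 74 lie nearer Okeechobee and 157 nearer Manatee, and among the lower genes 92 and 85.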

How the data were processed

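Poly(A) RNA from leaves was sequenced, and the authors used Cutadapt for trimming and STAR for mapping to version v5 of the lettuce genome, removed PCR duplicates and counted uniquely mapped reads per gene with HTSeq and SAMtools. They ran DESeq2 on the counts. The deposited files hold raw counts per gene for 38910 genes, without normalization. Summary lines for reads outside genes, ambiguous reads and non-unique reads were left out of library sizes. Whether counting used strand is not given in the sources used here.

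The counts were tested in R 4.3.3 with edgeR 4.0.16 over the 3 Okeechobee and 3 Manatee libraries, on genes that reached 10 counts in 3 or more libraries, with TMM scaling, robust quasi-likelihood F tests and Benjamini-Hochberg adjustment over all tested genes. Log2 fold changes are Okeechobee over Manatee. The ± beside them is an approximate standard error, the absolute log2 fold change divided by the square root of the F statistic. Printed CPM share 1 TMM scaling over the 9 libraries of the series, and the PCA used log2 CPM with a prior count of 2. Tables and figures used Python 3.11.15, pandas 2.3.3 and matplotlib 3.10.9. In simulated counts of 21937 genes, 200 were changed, all drawn from the more abundant genes. Of those changed by log2 fold changes of 1, 2 and 3 in either direction, 24.2%, 88.1% and 91.0% were recovered. Fewer genes were changed than the 1817 that passed in the data, so these shares need not hold for the data or for genes with few reads.

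Named genes were 11 of those the study measured by PCR, the 10 described DE genes each way with the smallest p, the 5 most abundant each way, the 4 (or fewer) smallest-p members in each of 38 lists, the 3 most abundant described genes each way with reads in 1 cultivar only, and the 5 described genes in which Manatee replicate 2 lay farthest from its mates. Of 194 named genes, some are not described in the text. Members, lists and tests were chosen with earlier results of these data known, and genes said to be chosen after their values were seen lie outside the rule. Descriptions came from the study’s supplementary tables, and the 8.28% and 21.8% shares of genes that passed among all and among described genes serve as background. Without Manatee replicate 2 these shares were 10.8% and 34.0%. Alternatives were DESeq2 1.42.0, its size factors, upper quartile and library size scaling, no filter and a 1 CPM filter, all 9 libraries in 1 model, a replicate block, each library left out, and other thresholds. Chromosome summaries, genes with reads in 1 cultivar and Manatee against 60184 without Manatee replicate 2 were added after seeing the data. Gene order was read from the gene IDs, and coordinates and promoter sequence were not used here.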

Additional observations from a re-analysis of the deposited data

How the results depend on the processing

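With 1 library left out in turn, 640 to 2375 genes passed the adjusted p (1817 with all 6 libraries), and the ratio of the mean variance within Okeechobee to that within Manatee was 0.872 to 2.44 (1.12 with all 6). DESeq2 passed 3654 genes and a model of all 9 libraries 3129, while the DE count was 471 and 436. A fold threshold of 1 on the log2 scale in place of 2 gave 1016 DE genes, and no threshold on the mean count gave 663. The other scalings and filters left both counts within 1.5 times. Replicate numbers did not pair the libraries, with correlations of same-numbered deviations of -0.32, -0.14 and 0.29, and a fit with a replicate block passed 596 genes and left 336 DE. The block kept 103 of the 143 named genes that passed, and fits without Manatee replicate 1 or without Manatee replicate 3 kept 109 each, while the fit without Manatee replicate 2 kept all 143. The cause of these shifts was not tested. Some genes that did not pass changed sign with 1 library left out or the block. Their log2 fold changes were -0.15 (without Okeechobee replicate 3) to 1.13 for Lsat_1_v5_gn_1_35241, -0.002 (without Okeechobee replicate 3) to 0.72 for Lsat_1_v5_gn_2_115560, -0.46 (without Okeechobee replicate 3) to 1.11 for Lsat_1_v5_gn_6_24740, -0.30 (without Okeechobee replicate 3) to 0.67 for Lsat_1_v5_gn_8_67360, -1.84 (without Okeechobee replicate 3) to 0.90 for Lsat_1_v5_gn_7_34481, with -0.35 without Manatee replicate 2, -0.24 (without Okeechobee replicate 1) to 0.63 for Lsat_1_v5_gn_7_107680, with -0.06 and -0.08 without Manatee replicate 1 or 3, and -1.53 to 1.85 (without Manatee replicate 2) for Lsat_1_v5_gn_4_34160, with 0.36 under the replicate block. With 3 libraries a cultivar, log2 fold changes of 1 were mostly missed in simulated counts, so genes that did not pass may still differ.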

Other observations

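Some gene groups outside the comparisons above held DE genes of high rank. Of 51 cytochrome P450 genes, 8 were higher and 4 lower in Okeechobee (median log2 fold change -0.11, and 10 and 6 without Manatee replicate 2). Lsat_1_v5_gn_4_120041 had 4.67, 9.87 and 8.08 CPM in Okeechobee and 0, 0 and 0.0643 CPM in Manatee (adjusted p = 0.00183), and Lsat_1_v5_gn_1_23721, of family 81, had 109.9, 106 and 101 CPM in Okeechobee and 28.1, 43.0 and 28.02 CPM in Manatee (log2 fold change 1.71 ± 0.20). Heat shock and chaperone genes had 7 of 52 higher and 5 lower (median 0.20, and 13 and 7 without Manatee replicate 2), with the histidine kinase Lsat_1_v5_gn_3_116581, listed for its HSP90-like domain, among the lower ones (0 CPM in Okeechobee and 2.21, 1.70 and 1.64 CPM in Manatee). A DnaJ 11 gene of the chloroplast (Lsat_1_v5_gn_9_89401) was lower at 5.17, 3.49 and 3.20 CPM in Okeechobee, against 55.7, 29.8 and 52.8 CPM in Manatee. Of 71 calcium signalling genes, 9 were higher and 8 lower (median 0.24), against 24 and 10 without Manatee replicate 2. Of 46 redox and detoxification genes, 6 were higher and 4 lower (median 0.09, and 10 and 7 without Manatee replicate 2), and a glutaredoxin (Lsat_1_v5_gn_8_137081) had 153, 126 and 131 CPM in Okeechobee and 431, 468 and 452 CPM in Manatee (log2 fold change -1.69 ± 0.17). Of 36 cell division and histone genes, 3 were higher and 2 lower (median 0.25, and 6 and 4 without Manatee replicate 2). Among them were the B-type cyclins Lsat_1_v5_gn_2_3900 (8.61, 6.35 and 7.69 CPM in Okeechobee and 0.0641, 0.601 and 0.611 CPM in Manatee) and Lsat_1_v5_gn_2_4881 (7.02, 5.02 and 5.82 CPM in Okeechobee and 0, 0 and 0.193 CPM in Manatee), which drive entry into mitosis.

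Transport and primary metabolism also differed in single genes. Of 10 nitrogen genes, 2 were higher and 1 lower (median 0.11, and 4 and 2 without Manatee replicate 2). The ammonium transporter Lsat_1_v5_gn_9_19241 had 2.62, 5.09 and 1.99 CPM in Okeechobee and 35.8, 13.4 and 27.7 CPM in Manatee (adjusted p 0.0144, 0.0512 to 0.0551 without 1 of Manatee replicates 1 or 3), and a nitrate transporter of the NRT1.5 type (Lsat_1_v5_gn_1_83321) had 12.2, 49.6 and 50.6 CPM in Okeechobee and 4.75, 2.01 and 3.99 CPM in Manatee (adjusted p 0.0193, 0.0513 to 0.0813 without 1 of Okeechobee replicates 2 or 3 or Manatee replicates 1 or 3). Of 31 sugar and starch genes, 4 were higher and 2 lower (median -0.01, and 6 and 3 without Manatee replicate 2), and a raffinose synthase-type gene (Lsat_1_v5_gn_0_32100) had 108, 106 and 116 CPM in Okeechobee and 23.7, 24.8 and 23.4 CPM in Manatee (log2 fold change 2.22 ± 0.12, adjusted p = 0.000271). ABC transporters had 3 of 30 higher and 1 lower (median 0.10, and 7 and 1 without Manatee replicate 2), aquaporins 0 of 10 higher and 1 lower (median -0.14, and 0 and 2 without Manatee replicate 2), ribosome and translation genes 4 of 34 higher and 2 lower (median 0.12, and 4 and 2 without Manatee replicate 2), and guard cell and epidermis genes 1 of 7 higher and 0 lower (median 0.45, and 1 and 0 without Manatee replicate 2). None of 6 gibberellin genes passed in edgeR with all 6 libraries and 2 were lower without Manatee replicate 2 (2 at an unadjusted p under 0.05; 0 higher and 2 lower by DESeq2), nor did any of 7 vascular genes, of which 1 was higher without Manatee replicate 2 (2 at an unadjusted p under 0.05; 1 higher and 0 lower by DESeq2). A profilin gene (Lsat_1_v5_gn_7_39460), whose product binds actin, had 21.3, 14.8 and 18.7 CPM in Okeechobee and 0.353, 0.177 and 0.193 CPM in Manatee (log2 fold change 6.24 ± 0.32, adjusted p = 0.000254). A ferric reductase-like gene (Lsat_1_v5_gn_6_68221) had 20.9, 19.0 and 17.6 CPM in Okeechobee and 0.0321, 0 and 0 CPM in Manatee (adjusted p = 0.000184).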
